A study of Mus musculus with 6 samples.

Results

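Scavenger receptors are surface and lysosomal proteins with which macrophages and related cells bind and take up modified lipoproteins, haemoglobin complexes, dead cells and microbes. The 10 genes described here are Msr1, Marco, Colec12, Cd36, Scarb1, Scarb2, Cd68, Mrc1, Stab1 and Cd163, out of 19938 named genes on the arrays. Each was measured by 1 probe set that carries that symbol alone, so that no choice between probe sets was needed. The members were chosen by receptor family, with the group differences measured on these same arrays, that of Msr1 among them, in view. The values of these genes in the comparison of the groups are therefore given as a description, and the p-values that stand beside them come from the fit across all genes.

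RNA from bone marrow cells of 6 mice, for which the labels name no sort by cell type, was profiled on Affymetrix mouse gene arrays, 1 array per mouse. Lethally irradiated CD45.1+ recipients had received CD45.2+ LSK donor cells, a fraction rich in stem and progenitor cells, which had been transduced with the homeobox gene Meis1 and with HoxA9 linked to GFP. The HoxA9 was the wild-type form in 3 mice (HoxA9wt/Meis1) and the form labelled HoxA9AA in the other 3 (HoxA9AA/Meis1), and marrow was taken at disease onset. Both groups thus carry introduced Meis1 and HoxA9, a pair of genes used to model acute myeloid leukaemia. Marrow without the introduced genes was not analysed here, the labels do not give the change in HoxA9AA or the age of the mice, and RNA of donor and recipient cells is not separated. In such bulk RNA, fewer cells of a type and less RNA per cell cannot be told apart.

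Values are log2 expression levels, so that a step of 1 is a 2-fold difference, and a negative difference means a lower mean in HoxA9AA/Meis1 marrow. As a background level, the 95th percentile of 1027 olfactory receptor genes, which marrow is not expected to use, was taken on each array (6.52 to 6.72), and a value below it is called not above background. Across genes, HoxA9AA replicate 2 correlated with the HoxA9wt arrays at r = 0.989 to 0.991, no less than these did among themselves (0.987 to 0.99). For HoxA9AA replicates 1 and 3 the same values were 0.958 to 0.97. Over the 6 mice Hoxa9 lay between 7.89 and 9.07 and Meis1 between 8.5 and 10.58, and both overlapped between the groups. Each has 1 probe set, and introduced and endogenous transcript were not told apart.

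As general background, the class A receptors Msr1, Marco and Colec12 are trimers with a collagen-like stalk that bind negatively charged ligands. The class B receptors Cd36, Scarb1 and Scarb2 span the membrane at both ends and bind lipids and lipoproteins. Cd68, Mrc1, Stab1 and Cd163 belong to other structural classes and are widely used as macrophage markers, Mrc1 and Cd163 most often for tissue-resident or alternatively activated cells.

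Every one of the 10 genes had a lower mean in HoxA9AA/Meis1 marrow, but the sizes ranged from -3.0 for Msr1 to -0.01 for Scarb1, and none passed the test. With limma's moderated test and Benjamini-Hochberg adjustment over all genes, 0 of 19938 genes (0.0%) had an adjusted p under 0.05, while 1344 (6.74%) had an unadjusted p under 0.05, 2.59% lower and 4.15% higher in HoxA9AA/Meis1. Among the 10 receptor genes, Msr1 had an unadjusted p under 0.05 and the other 9 did not. A lower mean was found for 46.4% of all genes, and the median difference was -0.67 over the receptor genes and 0.01 over all genes. The count of lower means was 9 after centring each array on its median, with array weights, or without HoxA9wt replicate 1, since the sign of Scarb1 then turned, and it was 8 without HoxA9AA replicate 1, where Scarb2 turned as well. A mean lower by 1 or more was found for 5 of the 10, Msr1, Cd36, Colec12, Cd163 and Mrc1, against 0.752% of all genes, and none was higher by 1 or more (0.426% of all genes). With values under the background level raised to it, Mrc1 stood at -0.79 and 4 genes were left.

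**Figure D1:**
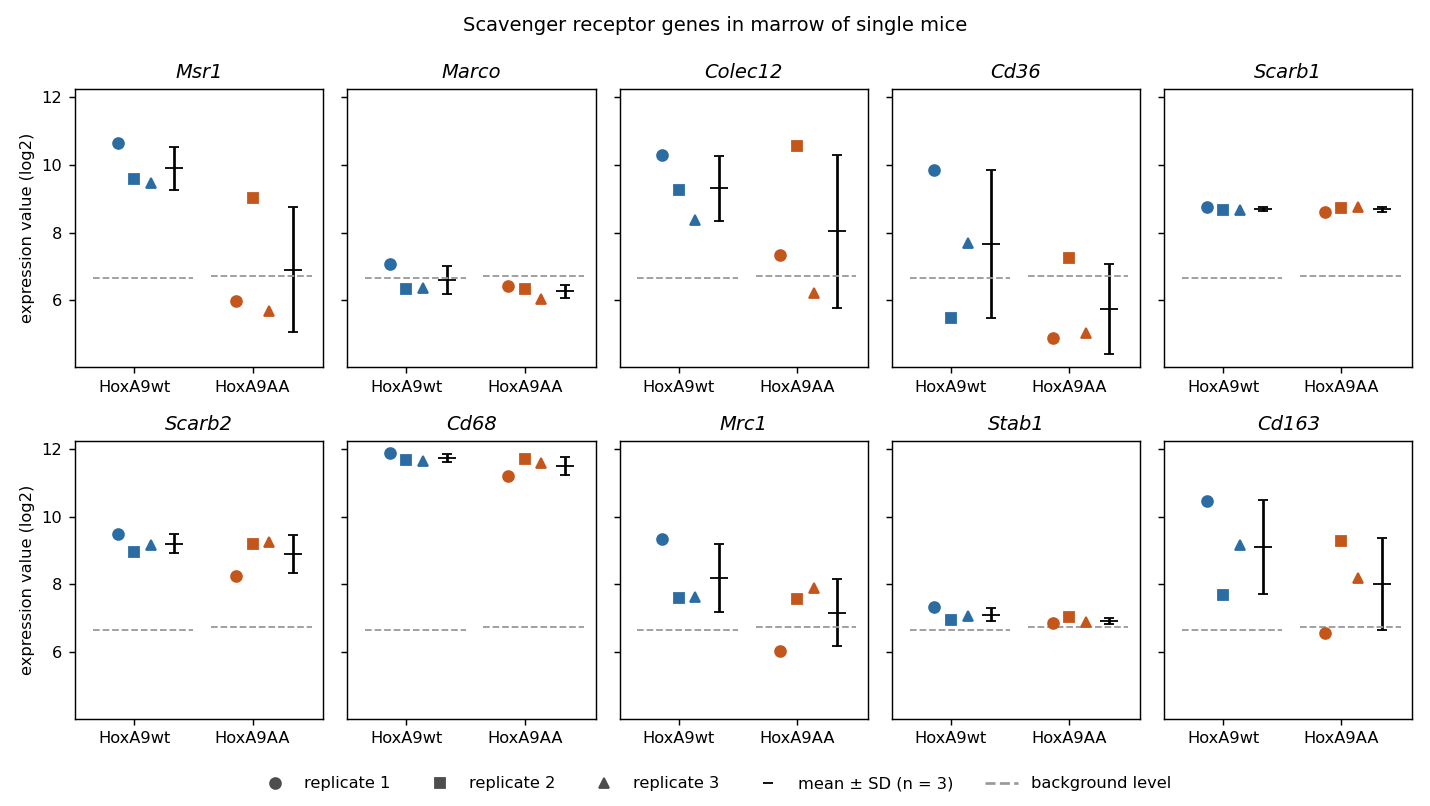
Expression values (log2, vertical axis) of the 10 scavenger receptor genes in each of the 6 mice, with symbols for replicates, black bars for the group mean ± SD (n = 3) and a dashed line at the highest background level of the arrays of a group. Msr1 is the gene whose groups do not overlap, while Cd36 runs from 4.88 to 9.85 and Scarb1 only from 8.61 to 8.76.

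Msr1, the class A receptor for oxidised lipoproteins and bacterial surfaces on macrophages, measured 10.64, 9.58 and 9.48 in the HoxA9wt/Meis1 mice and 5.99, 9.03 and 5.68 in HoxA9AA replicates 1, 2 and 3. HoxA9AA replicate 2 thus stood close below the lowest HoxA9wt mouse, and replicates 1 and 3 stood far below and were not above background. The difference was -3.0 ± 0.89 (SE, n = 3 against 3; 95% interval -5.14 to -0.86; limma, adjusted p = 0.731). With low values raised to the background level it was -2.48. Against the background level of their own arrays, replicates 1 and 3 lay at least 9.06-fold and at least 10.4-fold below the HoxA9wt mean, whereas replicate 2 lay 1.83-fold below it. Msr1 was the 1 gene of the 10 whose groups did not overlap, which held for 4.8% of all genes in this direction. Without HoxA9AA replicate 2, the array most like the HoxA9wt arrays, the difference was -4.07 and passed (limma, adjusted p = 0.0446), as did 48 genes in all (0.241%). That fit drops the HoxA9AA array nearest to the other group, and the HoxA9AA values left were not above background. Its pass is therefore no support for a difference. In the other alternatives the adjusted p of Msr1 was 0.584 or more (limma).

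Colec12, a collectin with a collagen-like stalk that is known mainly from endothelium, differed from Msr1 in HoxA9AA replicate 2. It measured 10.29, 9.25 and 8.38 in HoxA9wt/Meis1 and 7.35, 10.57 and 6.21 in HoxA9AA/Meis1 marrow. HoxA9AA replicate 2 held the highest of the 6 values, and replicates 1 and 3 held the lowest, replicate 3 not above background, so that the groups overlapped. The difference of -1.26 ± 1.11 (95% interval -3.94 to 1.41; limma, adjusted p = 0.876) was -2.53 without HoxA9AA replicate 2 and -0.35 without HoxA9AA replicate 3. The defining endothelial genes Cdh5, Kdr and Tek lay between 5.2 and 6.55, with 1 value above background among the 3 genes, that of Cdh5 in HoxA9AA replicate 2. Of the 10 genes of the endothelial list 4 were above background in all mice, Eng, Egfl7 and Stab2 between 6.69 and 7.13, and Pecam1, which leukocytes and platelets also carry, at 9.84, 8.96 and 9.32 against 10.88, 9.87 and 10.94. The part of endothelial cells in the values of Colec12 was not tested.

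Marco, the class A receptor of marginal zone and lung macrophages, was above background in 1 mouse, HoxA9wt replicate 1. It measured 7.06, 6.34 and 6.36 in HoxA9wt/Meis1 and 6.41, 6.34 and 6.05 in HoxA9AA/Meis1 marrow. No fold is given for it, since all 3 HoxA9AA mice and 2 of the 3 HoxA9wt mice were not above background.

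Cd36, the class B receptor for oxidised lipoproteins, long-chain fatty acids and thrombospondin, varied widely within both groups. It measured 9.85, 5.48 and 7.69 in HoxA9wt/Meis1 and 4.88, 7.26 and 5.04 in HoxA9AA/Meis1 marrow. HoxA9wt replicate 2 lay among the low HoxA9AA mice and was not above background, nor were HoxA9AA replicates 1 and 3. Among the HoxA9wt mice alone the values spanned at least 9.21-fold, taken against the background level of replicate 2. The difference was -1.95 ± 1.16 (95% interval -4.74 to 0.84; limma, adjusted p = 0.794), and it was -0.86 without HoxA9wt replicate 1, -3.04 without HoxA9wt replicate 2 and -1.23 with low values raised to the background level.

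Cd36 is also carried by platelets, red cell precursors, fat cells and endothelium. The platelet genes Itga2b, Gp9, Gp5 and Vwf lay between 6.71 and 7.21 in all mice. Itgb3, named after its values were seen, measured 8.19, 7.55 and 7.35 in HoxA9wt/Meis1 and 9.33, 8.67 and 9.03 in HoxA9AA/Meis1 marrow. Its difference was 1.31 (limma, adjusted p = 0.731). Pf4 lay between 5.74 and 7.35 and Ppbp between 7.52 and 10.42, both highest in HoxA9wt replicate 2, where Cd36 was low. The 9 measured erythroid genes were on average highest in the same mouse (7.86, against 6.58 to 6.94 in the other 5). Of the 9 stromal and fat genes 3, Lepr, Adipoq and Kitl, were above background in no mouse and 3, Col1a1, Cxcl12 and Lpl, in all mice. The mean of the list was 7.33, 6.81 and 7.2 in HoxA9wt/Meis1 and 6.96, 7.23 and 6.77 in HoxA9AA/Meis1, highest in HoxA9wt replicate 1 as Cd36 was. That list holds Fabp4 and Lpl, which macrophages also express. The part of these cells in the values of Cd36 was not tested.

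The class B relatives of Cd36 spread less over the mice, with spans of 0.15 for Scarb1 and 1.24 for Scarb2 against at least 3.33 for Cd36, whose low values were taken at the background level. Scarb1, the receptor that takes up cholesteryl esters from high-density lipoprotein, measured 8.76, 8.67 and 8.68 in HoxA9wt/Meis1 and 8.61, 8.72 and 8.75 in HoxA9AA/Meis1 marrow. Its difference was -0.01 ± 0.08, with a 95% interval of -0.21 to 0.19 (limma, adjusted p = 0.994), the narrowest interval of the 10. Scarb2, which carries glucocerebrosidase to lysosomes, measured 9.49, 8.94 and 9.15 in HoxA9wt/Meis1 and 8.25, 9.19 and 9.26 in HoxA9AA/Meis1 marrow. HoxA9AA replicate 1 alone stood apart, and without it the difference of -0.29 (95% interval -1.0 to 0.41; limma, adjusted p = 0.898) became 0.03.

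Cd68, a heavily glycosylated protein of late endosomes and lysosomes in macrophages, measured 11.87, 11.67 and 11.65 in HoxA9wt/Meis1 and 11.2, 11.69 and 11.59 in HoxA9AA/Meis1 marrow. HoxA9AA replicate 1 was lowest, the other 5 mice lay within a narrow range, and the difference was -0.24 ± 0.15 (limma, adjusted p = 0.804). Stab1, a large receptor of sinusoidal endothelium and some macrophages, measured 7.32, 6.93 and 7.06 in HoxA9wt/Meis1 and 6.85, 7.02 and 6.87 in HoxA9AA/Meis1 marrow, all little above background. Its groups overlapped, with a difference of -0.19 ± 0.12 (limma, adjusted p = 0.814).

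Mrc1, the mannose receptor, measured 9.33, 7.59 and 7.61 in HoxA9wt/Meis1 and 6.03, 7.55 and 7.9 in HoxA9AA/Meis1 marrow. HoxA9wt replicate 1 stood high, HoxA9AA replicate 1 stood low and was not above background, and the other 4 mice of both groups lay between 7.55 and 7.9. The difference of -1.02 ± 0.64 (95% interval -2.56 to 0.53; limma, adjusted p = 0.804) was -0.44 without HoxA9wt replicate 1 and -0.45 without HoxA9AA replicate 1. It therefore rested on a single mouse in each group.

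Cd163, the receptor for haptoglobin-haemoglobin complexes, measured 10.47, 7.68 and 9.16 in HoxA9wt/Meis1 and 6.57, 9.27 and 8.18 in HoxA9AA/Meis1 marrow. HoxA9AA replicate 1 was lowest and not above background, and HoxA9AA replicate 3 lay above HoxA9wt replicate 2. The difference was -1.10 ± 0.89 (95% interval -3.22 to 1.03; limma, adjusted p = 0.857), and it was -0.38 without HoxA9AA replicate 1, -0.41 without HoxA9wt replicate 1 and -1.81 without HoxA9wt replicate 2.

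**Figure D2:**
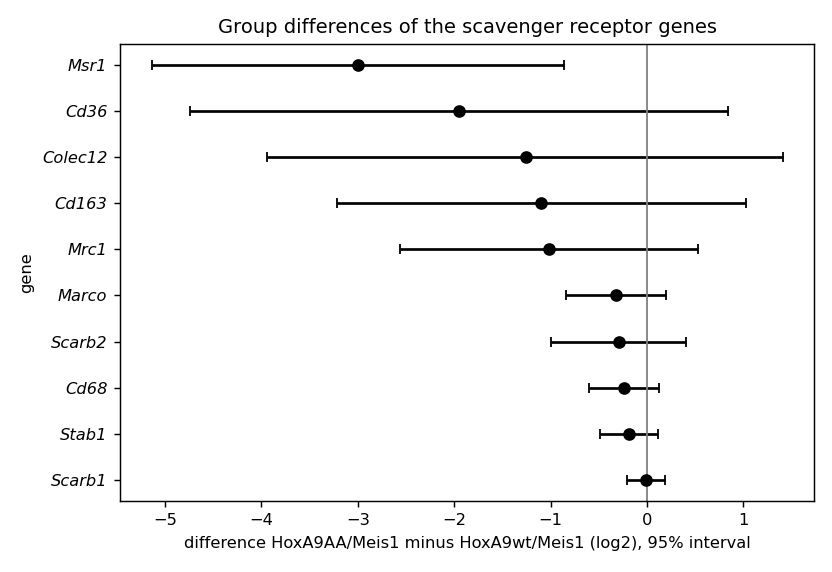
Differences HoxA9AA/Meis1 minus HoxA9wt/Meis1 (log2, horizontal axis) of the 10 genes with their 95% intervals from limma, n = 3 against 3. The interval of Msr1, -5.14 to -0.86, is the only one of the 10 that leaves out 0, and none of the genes passed the adjustment over all genes.

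Seen by mouse, the genes fell into different patterns. HoxA9wt replicate 1 held the highest of the 6 values for 9 of the 10 receptor genes, against 10.2% of all genes, the exception being Colec12, which was highest in HoxA9AA replicate 2 (8.65% of all genes). The lowest value was in HoxA9AA replicate 1 for 7 of them, against 19.4% of all genes, and in HoxA9AA replicate 3 for the other 3 (Msr1, Marco and Colec12), against 19.3%. For Msr1, Cd36 and Marco, however, several mice were not above background and the lowest values have no order, which leaves 6 genes for replicate 1 and 1, Colec12, for replicate 3. HoxA9AA replicate 1 lay below all 3 HoxA9wt mice for 9 of the 10 genes (26.4% of all genes), replicate 3 for 6 (29.3%) and replicate 2 for 2, Msr1 and Mrc1 (26.4%). Without Cd36 and Marco, where HoxA9wt mice too were not above background, these counts were 8, 4 and 2. Msr1 lay at least 9.06-fold and at least 10.4-fold below the HoxA9wt mean in HoxA9AA replicates 1 and 3, Cd36 at least 1.94-fold and at least 2.23-fold, and Colec12 3.88-fold and at least 6.91-fold. Mrc1 lay at least 2.74-fold below it in replicate 1 and 1.21-fold in replicate 3, and Cd163 at least 5.22-fold and 1.9-fold. In HoxA9AA replicate 2 the 10 genes lay between -0.87 for Msr1 and 1.26 for Colec12. The SD was larger among the HoxA9AA than among the HoxA9wt mice for 5 of the 10 and for 70.8% of all genes. Values not above background enter these SDs, and with 10 genes no contrast is drawn.

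**Figure D3:**
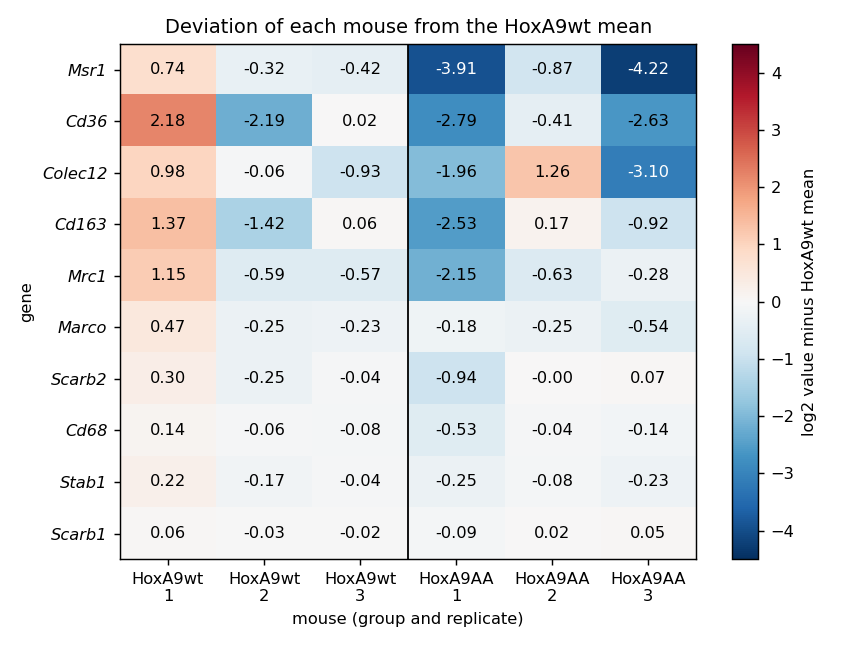
Log2 value of each mouse (columns) minus the HoxA9wt mean for the 10 genes (rows, ordered by group difference); blue is lower and red higher. HoxA9AA replicates 1 and 3 share low values of Msr1, Cd36 and Colec12, while Mrc1 and Cd163 are lowest in replicate 1. Values not above background (Msr1 and Cd36 in both, Mrc1 and Cd163 in replicate 1, Colec12 in replicate 3) are drawn as measured. The bounds given for them in the text, taken from the background level, are smaller deviations.

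The promoters of the genes were set side by side to show what the sequence upstream of a steady and of a varying receptor gene holds. RefSeq (GRCm38.p6) gave a promoter entry for 7 of the 10 genes, and the 250 bases before the listed start were searched on both strands for GAGGAA (the core bound by the myeloid ETS factor PU.1), TGANTCA (AP-1), TTGCNNAA (C/EBP), TGACAG (MEIS) and TGATTTAT (HOX with PBX), which do not contain each other. Cd36 (chr5:17835897-17836146, minus strand) and Cd163 (chr6:124304401-124304650, plus strand) are shown because they varied widely and hold no match. Mrc1 (chr2:14229164-14229413, plus strand) and the steady Cd68 (chr11:69666171-69666420, minus strand) are shown because they hold the most matches. Mrc1 varied too, and of the 10 genes its course was nearer to that of Cd163 (root mean square difference 0.62) than that of Cd36 was (0.76). Values not above background entered these differences as measured, those of Cd36 in 3 mice among them, so that the order of the 2 is uncertain. The sequences run 5′ to 3′ on the strand of the gene, with matches in capitals.
Cd36: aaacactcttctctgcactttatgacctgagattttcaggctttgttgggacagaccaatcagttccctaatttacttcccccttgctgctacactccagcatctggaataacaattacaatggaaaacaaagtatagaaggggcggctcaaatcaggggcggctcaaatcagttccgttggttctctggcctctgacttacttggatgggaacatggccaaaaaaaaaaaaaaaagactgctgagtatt
Cd163: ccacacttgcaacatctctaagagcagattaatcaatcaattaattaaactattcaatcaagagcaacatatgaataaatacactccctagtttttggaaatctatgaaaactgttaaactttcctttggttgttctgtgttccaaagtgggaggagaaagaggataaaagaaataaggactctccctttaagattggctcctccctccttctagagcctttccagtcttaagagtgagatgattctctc
Mrc1: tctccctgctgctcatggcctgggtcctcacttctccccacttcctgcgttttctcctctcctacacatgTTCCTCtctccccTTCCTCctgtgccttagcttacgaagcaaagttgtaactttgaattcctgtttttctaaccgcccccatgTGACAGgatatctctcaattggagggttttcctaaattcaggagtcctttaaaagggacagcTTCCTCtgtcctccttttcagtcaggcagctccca
Cd68: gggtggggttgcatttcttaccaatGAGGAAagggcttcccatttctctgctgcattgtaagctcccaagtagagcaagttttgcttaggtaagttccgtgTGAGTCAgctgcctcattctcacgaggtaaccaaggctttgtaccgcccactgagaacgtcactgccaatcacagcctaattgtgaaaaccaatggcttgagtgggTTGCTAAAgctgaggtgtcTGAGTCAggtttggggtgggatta

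The windows of Cd36 and Cd163 held none of the 5 motifs, and neither did that of Scarb2, which is not shown and whose values spanned only 1.24. That of Mrc1 held GAGGAA 3 times, each on the opposite strand, and TGACAG 1 time. That of Cd68 held GAGGAA and TTGCNNAA 1 time each and TGANTCA 2 times. GAGGAA was present upstream of 4 of the 7 genes (Marco, Cd68, Mrc1 and Stab1), against 23.3% of 32851 promoters, TGACAG upstream of 2 (15.9%), TGANTCA and TTGCNNAA upstream of 1 each (6.75% and 9.56%), and TGATTTAT upstream of none (0.837%). These are matches of letters in a short window. The listed start of Cd36 lies inside the span of the gene in the same annotation, so that the window is that of 1 of its starts, and the last bases of the Cd163 window lie inside the annotated gene.

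The genes lie apart in the genome. Cd36, Scarb1 and Scarb2 are on chromosome 5, Mrc1 is on chromosome 2, and the others are on 6 further chromosomes (1, 6, 8, 11, 14 and 18). The expressed neighbours of each (up to 15 per side with a mean of 8 or more) had a median deviation from the HoxA9wt mean between -0.33 (Colec12) and -0.01 in HoxA9AA replicate 1. In replicate 3 it lay between -0.18, again for Colec12, and 0.3 for Cd163. The part of the neighbourhood in the values of Colec12 was not tested. On chromosome 2, neighbours of Spi1 stood at -0.74 in HoxA9AA replicate 1 and those of Mertk at -0.68, against -0.11 for those of Mrc1.

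For each receptor gene whose values spanned 1 or more, the 3 genes with the most similar course over the 6 mice were looked up among 9970 genes at or above the median level, by the root mean square difference of profiles less their own means. Those nearest to Msr1 were Mertk, a receptor for apoptotic cells, at 0.44, Bst1, an ectoenzyme, at 0.49, and the transporter gene Abca9 at 0.51, where Msr1 itself varied by 1.88 about its mean. Mertk measured 10.16, 9.51 and 9.72 in HoxA9wt/Meis1 and 6.14, 8.93 and 6.64 in HoxA9AA/Meis1 marrow. It was low in the same 2 mice as Msr1, which follows from how it was picked. In HoxA9AA replicate 1, but not in replicate 3 (0.16), the neighbours of Mertk were low too, as given above. Cd163 and the immune checkpoint receptor gene Havcr2 were among the 3 nearest to Cd36 (0.76 and 0.8), beside Rnd3 (0.76), and Havcr2 was also the nearest to Cd163 (0.35), before Slc9a7 (0.45) and St3gal5 (0.51). Abcg3 (0.26), the receptor gene Calcrl (0.28) and Spata6 (0.36) were nearest to Mrc1. The glutathione peroxidase gene Gpx3 (0.51), Lipo3 (0.52) and Gm9733 (0.62) were nearest to Colec12. For the less variable genes the nearest were Sh3bgrl, Prcp and Appl1 (Marco, 0.09 to 0.1) and Glmn, Itgb7 and BC005537 (Scarb2, 0.07 each). None of these genes had an adjusted p under 0.731 (limma). The ranking describes 6 mice and says nothing of shared control. Values not above background entered it as measured, those of Msr1 in 2 mice, Cd36 in 3 and Marco in 5 among them. With such values raised to the background level Marco spanned 0.54, below the limit of 1, so that its nearest genes say little.

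**Figure D4:**
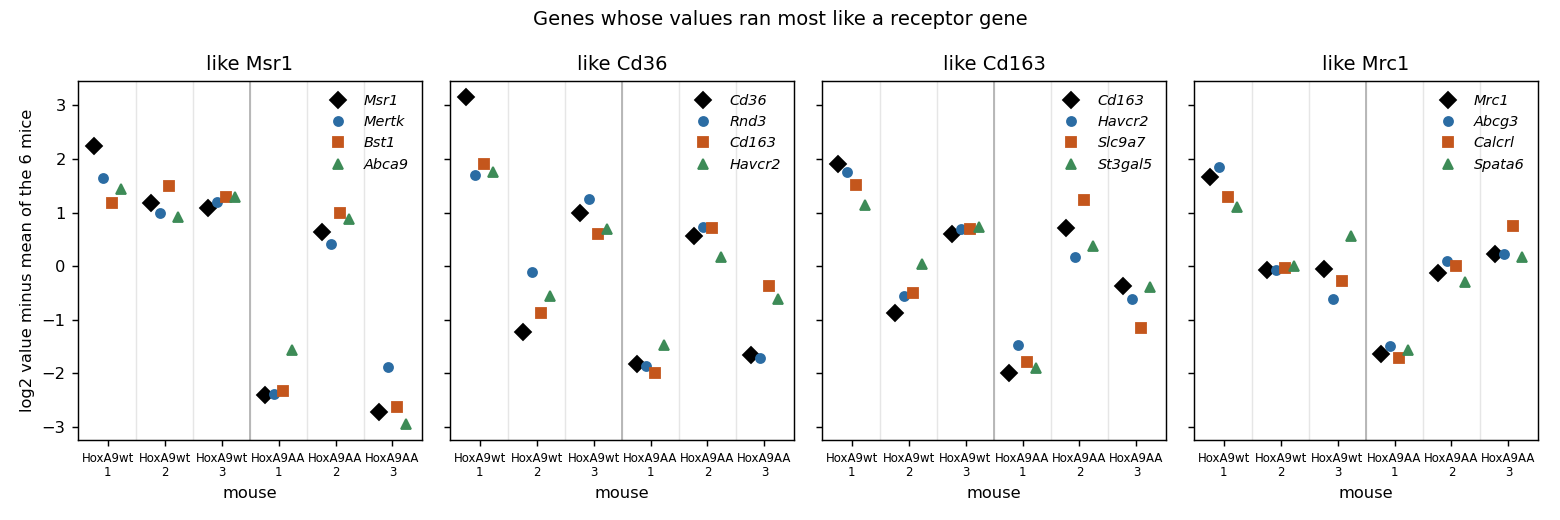
Log2 values minus the mean of the 6 mice (vertical axis) for Msr1, Cd36, Cd163 and Mrc1 (black diamonds) and the 3 genes with the most similar course to each, by mouse (horizontal axis). Mertk, Bst1 and Abca9 are low in HoxA9AA replicates 1 and 3 as Msr1 is, and the 3 genes beside Mrc1 are lowest in HoxA9AA replicate 1. The genes were picked for their likeness over these mice, so that the shared course follows from the choice. Values not above background are drawn as measured.

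For the counts of this and the following lists, 46.4% of all genes had a lower mean. An unadjusted p under 0.05 was found for 2.59% of all genes in the lower and 4.15% in the higher direction. Other scavenger receptors lay close to the median of all genes as a list. Of 19 measured genes 13 had a lower mean, 1 had an unadjusted p under 0.05 and none passed, and their median difference was -0.05 against 0.01 over all genes. The lysosomal membrane proteins Lamp1 and Lamp2, relatives of Cd68, differed by -0.26 each. Olr1, the receptor for oxidised lipoprotein best known from endothelium, measured 9.3, 9.13 and 8.74 in HoxA9wt/Meis1 and 10.94, 9.26 and 8.92 in HoxA9AA/Meis1 marrow. HoxA9AA replicate 1 was thus highest in Olr1, where it was low in Msr1. Lrp1, a large receptor for lipoproteins and protease complexes that was singled out after its values were seen, measured 9.16, 9.08 and 9.22 against 7.58, 9.07 and 7.9 (difference -0.97; limma, adjusted p = 0.731), low in the same 2 mice as Msr1 and barely apart in the third. In 9 of the 19 genes, Cxcl16 and Timd4 among them, no mouse was above background.

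Ligands and signalling partners of the receptors likewise gave no call. Of 17 measured genes 10 had a lower mean, 2 had an unadjusted p under 0.05, both lower, and the median difference was -0.03. Apolipoprotein E (Apoe) differed by -0.03, the haptoglobin gene Hp by -0.55 and the adaptor gene Fcer1g by less than 0.01 in size. The 2 genes with an unadjusted p under 0.05, named after their values were seen, were Thbs1 and Tlr6. Thbs1, which encodes thrombospondin 1, a ligand of Cd36, measured 8.19, 8.69 and 9.32 in HoxA9wt/Meis1 and 7.02, 7.26 and 7.1 in HoxA9AA/Meis1 marrow. All 3 HoxA9AA mice were low here, replicate 2 included, and the difference was -1.61 ± 0.27 (limma, adjusted p = 0.731). Tlr6, a co-receptor that works with Cd36, differed by -0.83.

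Genes of lipid uptake and storage went both ways, with 9 of 15 measured genes lower, 1 with an unadjusted p under 0.05 (Fabp5, higher by 0.41) and a median difference of -0.05. The lysosomal acid lipase gene Lipa measured 11.18, 10.31 and 10.35 in HoxA9wt/Meis1 and 8.81, 10.85 and 10.44 in HoxA9AA/Meis1 marrow, lowest in HoxA9AA replicate 1. The cholesterol carrier gene Npc2 differed by -0.03 and the lipid droplet gene Plin2 by -0.43. Plin2 was highest in HoxA9wt replicate 1, at 11.32 against 10.17 to 10.45 in the other 5 mice. The fatty acid binding protein gene Fabp4 and the lipoprotein lipase gene Lpl, named after their values were seen, were highest in that mouse too. Fabp4 measured 10.33 there and 6.46 to 8.05 elsewhere, and Lpl 11.07 there and 7.7 to 10.64 elsewhere.

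Of 9 measured genes of haem and iron handling 5 had a lower mean, with a median of -0.01 and 1 unadjusted p under 0.05 (Flvcr1, -0.65). The haem oxygenase gene Hmox1 measured 9.8, 9.32 and 9.66 in HoxA9wt/Meis1 and 8.45, 9.64 and 8.69 in HoxA9AA/Meis1 marrow (difference -0.67; limma, adjusted p = 0.734), again low in HoxA9AA replicates 1 and 3. The ferritin gene Fth1 differed by -0.01 and the haem transporter gene Slc48a1 by 0.36.

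Of 16 measured regulators of macrophage receptor genes 7 had a lower mean, 1 had an unadjusted p under 0.05 in each direction (Klf4, -0.43, and Ppard, 0.25), and the median difference was 0.01. Spi1, which encodes PU.1, lay between 9.3 and 9.4 in all 6 mice, with a difference of 0.02 (limma, adjusted p = 0.984), and Stat6 and Nfe2l2 differed by 0.02 and -0.22. The part of these regulators in the values of the receptor genes was not tested.

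As a list, markers of monocytes were low in the same 2 mice as Msr1. Of 13 measured monocyte genes 12 had a lower mean (46.4% of all genes), with a median of -0.56 (0.01 over all genes). Of the 13, 3 had an unadjusted p under 0.05, all lower (2.59% of all genes), and 12 were above background in all mice. The mean level of the list was 9.9 to 10.22 in HoxA9wt/Meis1, and 9.25, 10.1 and 9.35 in HoxA9AA replicates 1, 2 and 3. Of its defining genes, the growth factor receptor Csf1r measured 10.31, 9.58 and 10.13 against 8.81, 10.19 and 9.28, the chemokine receptor Ccr2 12.25, 12.06 and 12.1 against 9.97, 12.05 and 11.3, and Fcgr1 lay at 6.32 to 6.86. Relative to the HoxA9wt mean, the list lay at -0.84 and -0.74 in HoxA9AA replicates 1 and 3. Not every gene followed. In replicate 3 Ly86 (11.52), F13a1 (11.95), Irf8 (8.65) and Fcgr1 (6.52) lay inside the HoxA9wt range, as did Cx3cr1 (7.84) in replicate 1. How far the number of monocytes sets the values of Msr1 was not tested.

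For the counts of this paragraph, 46.4% of all genes had a lower mean, and the median over all genes was 0.01. Resident macrophage genes lay at 7.44 to 7.67 in HoxA9wt/Meis1 and 7.31 to 7.55 in HoxA9AA/Meis1 as a mean over the list, with 7 of 13 lower and a median of -0.09. Adgre1, which encodes F4/80, measured 11.21, 10.45 and 10.48 against 9.54, 10.57 and 10.29, whereas C1qa and Siglec1 lay between 6.53 and 6.94, close to background. Dendritic cell genes lay at 6.69 to 7.18 and 6.6 to 7.03 (8 of 12 lower), with Zbtb46, Xcr1 and Clec9a above background in no mouse. Late neutrophil genes lay at 6.97 to 9.95 and 9.05 to 10.41, with 9 of 10 higher, and were lowest in HoxA9wt replicate 3, where Ly6g stood at 5.64, Ltf at 5.73 and Camp at 7.04. The primary granule genes lay at 10.03 to 10.66 and 10.37 to 11.75 (6 of 6 higher), highest in HoxA9AA replicate 1, the mouse in which 6 of the receptor genes were lowest. There the granule protein genes Mpo, Elane and Prtn3 measured 12.87, 12.71 and 10.4, each above the other 5 mice. Prss57 (10.4) was highest there too. Ctsg stood at 12.63 there against 12.61 in HoxA9AA replicate 3, and Ms4a3 at 11.47, inside the HoxA9wt range (10.62 to 11.55). None of the genes on these lists passed the test.

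The remaining marker lists had low means. Endothelial genes lay at 6.53 to 6.61 in HoxA9wt/Meis1 and 6.66 to 6.75 in HoxA9AA/Meis1, stromal and fat genes at 6.81 to 7.33 and 6.77 to 7.23, and platelet genes at 6.98 to 7.67 and 7.16 to 7.32. Col1a1 and Cxcl12 of the stromal list lay between 7 and 7.85, and the erythroid genes Alas2 and Slc4a1 between 6.55 and 8.18, each highest in HoxA9wt replicate 2. B cell genes lay at 6.22 to 6.36 and 6.4 to 6.54, and T and NK cell genes at 5.86 to 6 and 5.88 to 6.03, with Cd79a and Cd3d above background in no mouse, Cd79b at 7.46 to 9.37, and Cd3e and Cd8a at 6.72 to 7.53. Basophil, mast cell and eosinophil genes lay at 6.49 to 7.63 and 6.44 to 7.62. In that list Mcpt8 lay at 8.54 to 9.89 and Prss34 at 5.86 to 7.21. The mast cell protease gene Cpa3 measured 10.47 in HoxA9wt replicate 1 and 11.08 in HoxA9AA replicate 3, against 5.69 to 7.83 in the other 4 mice, so that it was high both in a mouse with high and in a mouse with low Cd36. The part of any of these cells in the receptor values was not tested.

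**Figure D5:**
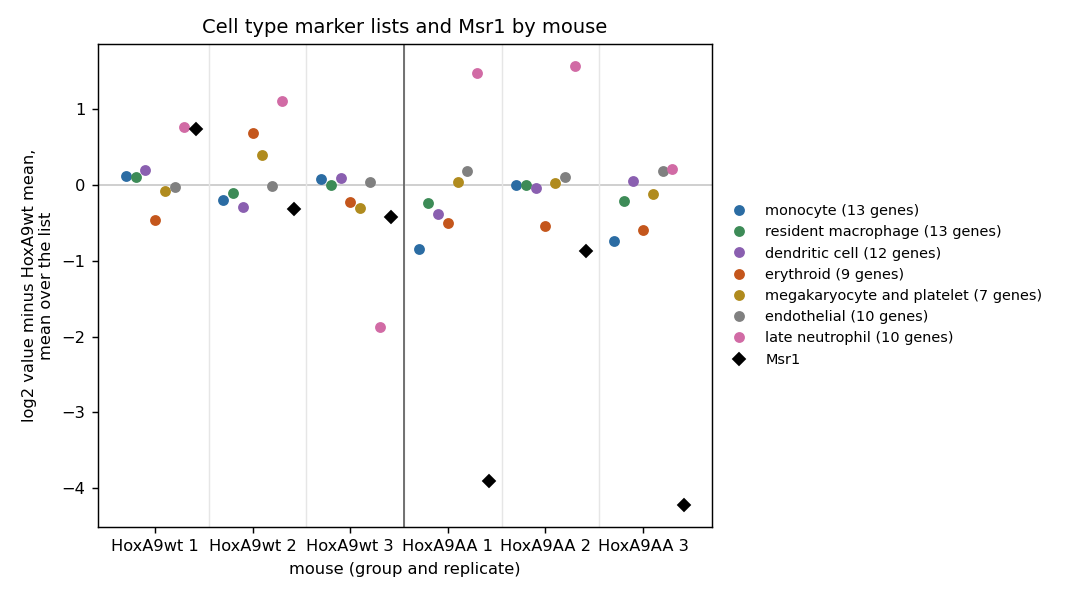
Deviation from the HoxA9wt mean (log2, vertical axis), averaged over the genes of each cell type marker list, by mouse (horizontal axis), with Msr1 as black diamonds. Monocyte genes stand at -0.84 and -0.74 in HoxA9AA replicates 1 and 3. Msr1 is not above background there, and its points are drawn as measured and lie lower than the bounds in the text. The erythroid and platelet lists are highest in HoxA9wt replicate 2.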

How the data were processed

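RNA of bone marrow cells from 6 mice, 3 per group, was hybridised to 6 arrays. The deposited values are log2 expression per probe set, and the submitters' processing notes name oligo and RMA, a method of background correction, quantile normalization and summary per probe set. For their software the version is not given in the sources used. The log2 scale was taken from RMA and the range of values. Quantile normalization makes the arrays alike in distribution, so that values are relative within an array. Of 35556 probe sets, 21789 had 1 gene symbol in the platform annotation, 1621 had several and were left out, and 12146 stayed unnamed; the brightest per gene left 19938 genes. Listed genes without such a probe set were not analysed here.

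The test was that of limma 3.58.1 under R 4.3.3 (lmFit, eBayes, two-sided, no block), tested on simulated data. An interval is the 95% interval of that model. The labels call the mice biological replicates, and their number limits precision. The members and lists were chosen with earlier results of these data known. All 10 members were named, and of each pathway list the 3 genes with the highest mean, of each marker list the first 3 genes, and the 3 genes most like each variable member. Same-numbered mice were not paired, since the labels name no block. Their deviations from the group means correlated at -0.208, -0.103 and -0.013 across genes, and those of differently numbered mice at -0.16 to 0.239. Deviations within a group of 3 depend on each other, so these values cannot decide whether mice were paired. Figures were drawn with matplotlib 3.10.9.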

Additional observations from a re-analysis of the deposited data

How the results depend on the processing

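The count of 0 genes called held under every alternative with all 6 arrays. Leaving out each array in turn gave 0 to 48 called genes (48 without HoxA9AA replicate 2, 1 without HoxA9wt replicate 3). The 1344 genes with an unadjusted p under 0.05 became 608 to 2802 on leaving out an array, 891 among genes at or above the median level and 2475 over all probe sets, which changes the number of genes tested. With the replicate number as a block (replicate block) 0 genes were called, 1117 had an unadjusted p under 0.05, and Msr1 kept -3.0 (limma, adjusted p = 0.891).

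Leaving out an array moved the differences of Msr1 between -4.07 and -2.39, Cd36 between -3.04 and -0.86, Colec12 between -2.53 and -0.35, Cd163 between -1.81 and -0.38, Mrc1 between -1.39 and -0.44, Marco between -0.44 and -0.08, Cd68 between -0.34 and -0.09 and Stab1 between -0.28 and -0.08, all lower. It turned the sign of Scarb2 (-0.47 to 0.03) and Scarb1 (-0.04 to 0.03), and Scarb1 also stood at 0.02 after median centring and with array weights; the cause was not tested. Array weights with all 6 arrays gave -0.53 for Colec12, -0.49 for Mrc1, -0.50 for Cd163, -0.10 for Scarb2, -1.27 for Cd36, -0.21 for Marco, -0.13 for Cd68, -0.12 for Stab1 and -2.41 for Msr1. The adjusted p of Msr1 (limma) ranged from 0.0446 to 0.998 over its alternatives, with the lowest without HoxA9AA replicate 2 and the next at 0.584. Raising low values to the background level was added after seeing the data. Cd36 and Marco have no value under the filter at the median. Marco was not above background in 5 of the 6 mice, so that its direction says little. With the 99th percentile as background, 3 of the 10 genes were above it in all mice in place of 4. No member had a second probe set.

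With 3 mice per group and SDs of up to 2.26 among them, differences of the size seen for Cd36, Colec12, Mrc1 and Cd163 cannot be told from 0. That of Msr1 did not pass the adjustment over all genes either (limma, adjusted p = 0.731), and the gene was chosen with its difference in view. Values near background compress differences.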
